A study of Mus musculus with 2 samples.

Results

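Genes of cholesterol efflux and its liver X receptors were followed in droplet single-cell RNA sequencing of mouse liver tumour regions. They were Abca1, Abcg1, Apoe, Mylip, Nr1h3, Nr1h2, Npc1 and Npc2, chosen by their symbols in the feature tables of the control and the inhibitor library. All 8 were found in each library, among 31053 features. The rule used symbols alone, but the genes were chosen with earlier results of these data known.

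Cells rid themselves of surplus cholesterol by handing it to lipoprotein particles outside the cell. Oxysterols, which form when cholesterol accumulates, activate the liver X receptors, and these nuclear receptors switch on the genes of export and of reduced uptake. Macrophages depend on this route because they take up lipids with dead cells and modified lipoproteins. ABCA1 and ABCG1 are the membrane transporters that move cholesterol out, apolipoprotein E is an acceptor secreted by macrophages and hepatocytes, and MYLIP is a ubiquitin ligase that limits lipoprotein uptake. These 4 are known targets of the receptors. Nr1h3 encodes LXR alpha and Nr1h2 encodes LXR beta, while NPC1 and NPC2 pass cholesterol out of the lysosome.

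The study compared cells of the HCC (hepatocellular carcinoma) region of livers from C57BL/6 mice aged 17 months that were kept for 15 months on the diet named CD-HFD. The inhibitor group received an inhibitor of FABP5, a cytosolic carrier of fatty acids, from month 13, and the other group is labelled control. How many mice stood behind each library, and what the control mice received, is not given in the sources used here. Tissue was digested with collagenase and live cells were selected with an Annexin V kit before encapsulation on the 10x Genomics 3′ platform, which counts captured mRNAs by unique molecular identifiers (UMIs).

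There was 1 library in each group, so no test was possible, no p-value is given, and each difference is between these 2 libraries without a replicate check. The deposited tables held 9493 control barcodes with 53378693 UMIs and 10649 inhibitor barcodes with 68074929 UMIs, of which 6461 and 8753 were kept as cells. Over the mitochondrial limit of 25% were 2204 control and 885 inhibitor barcodes, so the libraries differed in this respect before any gene was compared. They shared 29 barcodes, 18 of them kept in both. The labels call the material liver cells, yet by marker genes most kept cells were leukocytes, and 319 control and 137 inhibitor cells were hepatocyte-like. Clusters were named from marker genes, hence "-like", and comparisons were made in the 13 classes in which both libraries had 50 or more cells. Genes of this pathway were left out of the clustering.

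Levels are given as CPM, the UMIs of a gene as counts per 1000000 UMIs of its class, and differences as the log2 ratio of inhibitor over control. A gene is called lower or higher where the CPM differed by at least 1.5-fold, and measured where the class held at least 20 of its UMIs over both libraries. The 95% intervals are exact Poisson intervals for CPM, exact conditional binomial intervals for ratios and exact Clopper-Pearson intervals for shares of cells. They cover counting error only. Levels are not scaled for transcript length and are therefore compared between classes and not between genes.

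Among the 13 classes Abca1 was highest in Kupffer cell-like cells, the resident macrophages of the liver, at 274 CPM in control and 199 CPM in inhibitor cells. Macrophage-like cells followed with 78.1 and 56.4 CPM. B cell-like cells came next in the control library, with 51.0 and 33.2 CPM, and hepatocyte-like cells in the inhibitor library, with 12.1 and 47.5 CPM. In T cell-like cells Abca1 was at 5.35 and 4.30 CPM, close to the bottom of the order. The gene lies at chr4:53030787-53159895 on the minus strand of GRCm38. Its promoter window is shown because it was the only window among those of the 6 genes found in the RefSeq promoter table (all but Abcg1 and Npc1) with a match to the paired half-sites to which liver X receptors bind. The window runs from 250 bases before to 50 bases after the start (chr4:53159846-53160145, GRCm38.p6, minus strand, from RefSeq), written 5′ to 3′, and capitals mark the match.

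Abca1: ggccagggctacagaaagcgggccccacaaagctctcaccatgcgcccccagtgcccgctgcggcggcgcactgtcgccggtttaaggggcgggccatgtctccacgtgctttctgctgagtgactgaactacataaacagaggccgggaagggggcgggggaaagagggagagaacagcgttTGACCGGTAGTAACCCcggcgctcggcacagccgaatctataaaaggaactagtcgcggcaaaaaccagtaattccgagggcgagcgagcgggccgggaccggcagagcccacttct

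The motif searched was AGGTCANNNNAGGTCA on both strands, with at most 3 mismatches in the 12 fixed letters. The Abca1 match read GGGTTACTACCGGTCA on the opposite strand, at chr4:53159947-53159962, and so lay 67 to 52 bases before the start. By the same rule 21.9% of all 32851 windows of this length held a match, so a match in 1 of 6 genes is near the share over all genes, which was 24.5%. A match describes letters and not a bound site.

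Abcg1 (chr17:31057675-31117988, plus strand) was also highest in Kupffer cell-like cells, at 263 CPM in control and 159 CPM in inhibitor cells. Macrophage-like cells had 176 and 121 CPM, nonclassical monocyte-like cells 156 and 128 CPM and neutrophil-like cells 118 and 55.9 CPM. The lowest control level of Abcg1 was 33.4 CPM, in cycling cells. Apoe (chr7:19696109-19699188, minus strand) stood at 28601 and 20394 CPM in Kupffer cell-like cells and at 21285 and 7564 CPM in macrophage-like cells. Hepatocyte-like cells had 6487 and 5233 CPM of Apoe. Macrophage-like cells supplied 58.1% of all Apoe UMIs of kept control cells and 6.39% of those of kept inhibitor cells.

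Mylip (chr13:45389742-45412022, plus strand) had another order of classes. Its control level was 84.5 CPM in neutrophil-like and 79.2 CPM in B cell-like cells, whose Poisson intervals overlapped, and 68.7 CPM in Kupffer cell-like cells. Nr1h3 (chr2:91184061-91202834, minus strand) was highest in Kupffer cell-like cells, at 317 and 639 CPM. Nonclassical monocyte-like cells had 95.9 and 72.2 CPM, macrophage-like cells 65.7 and 139 CPM and hepatocyte-like cells 49.8 and 117 CPM. Classical monocyte-like cells had 14.2 and 4.21 CPM and T cell-like cells 1.0 and 1.5 CPM. Nr1h2 (chr7:44549616-44553951, minus strand) differed little between classes, with control levels from 40.9 CPM in cycling cells to 61.2 CPM in classical monocyte-like cells.

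Npc1 was highest in plasmacytoid dendritic cell-like cells, at 130 and 132 CPM, ahead of Kupffer cell-like cells with 74.9 and 83.1 CPM. Npc2 (chr12:84754562-84773152, minus strand) was highest in macrophage-like cells, at 1788 and 1471 CPM, followed in the control library by classical monocyte-like, joint monocyte-like and Kupffer cell-like cells. The joint class is 1 cluster whose markers were shared between classical and nonclassical monocytes. Cholangiocyte-like or tumour epithelial-like cells occurred in the control library only (57 cells) and had 52.0 CPM of Abca1, 12259 CPM of Apoe and 71.9 CPM of Npc1.

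**Figure D1:**
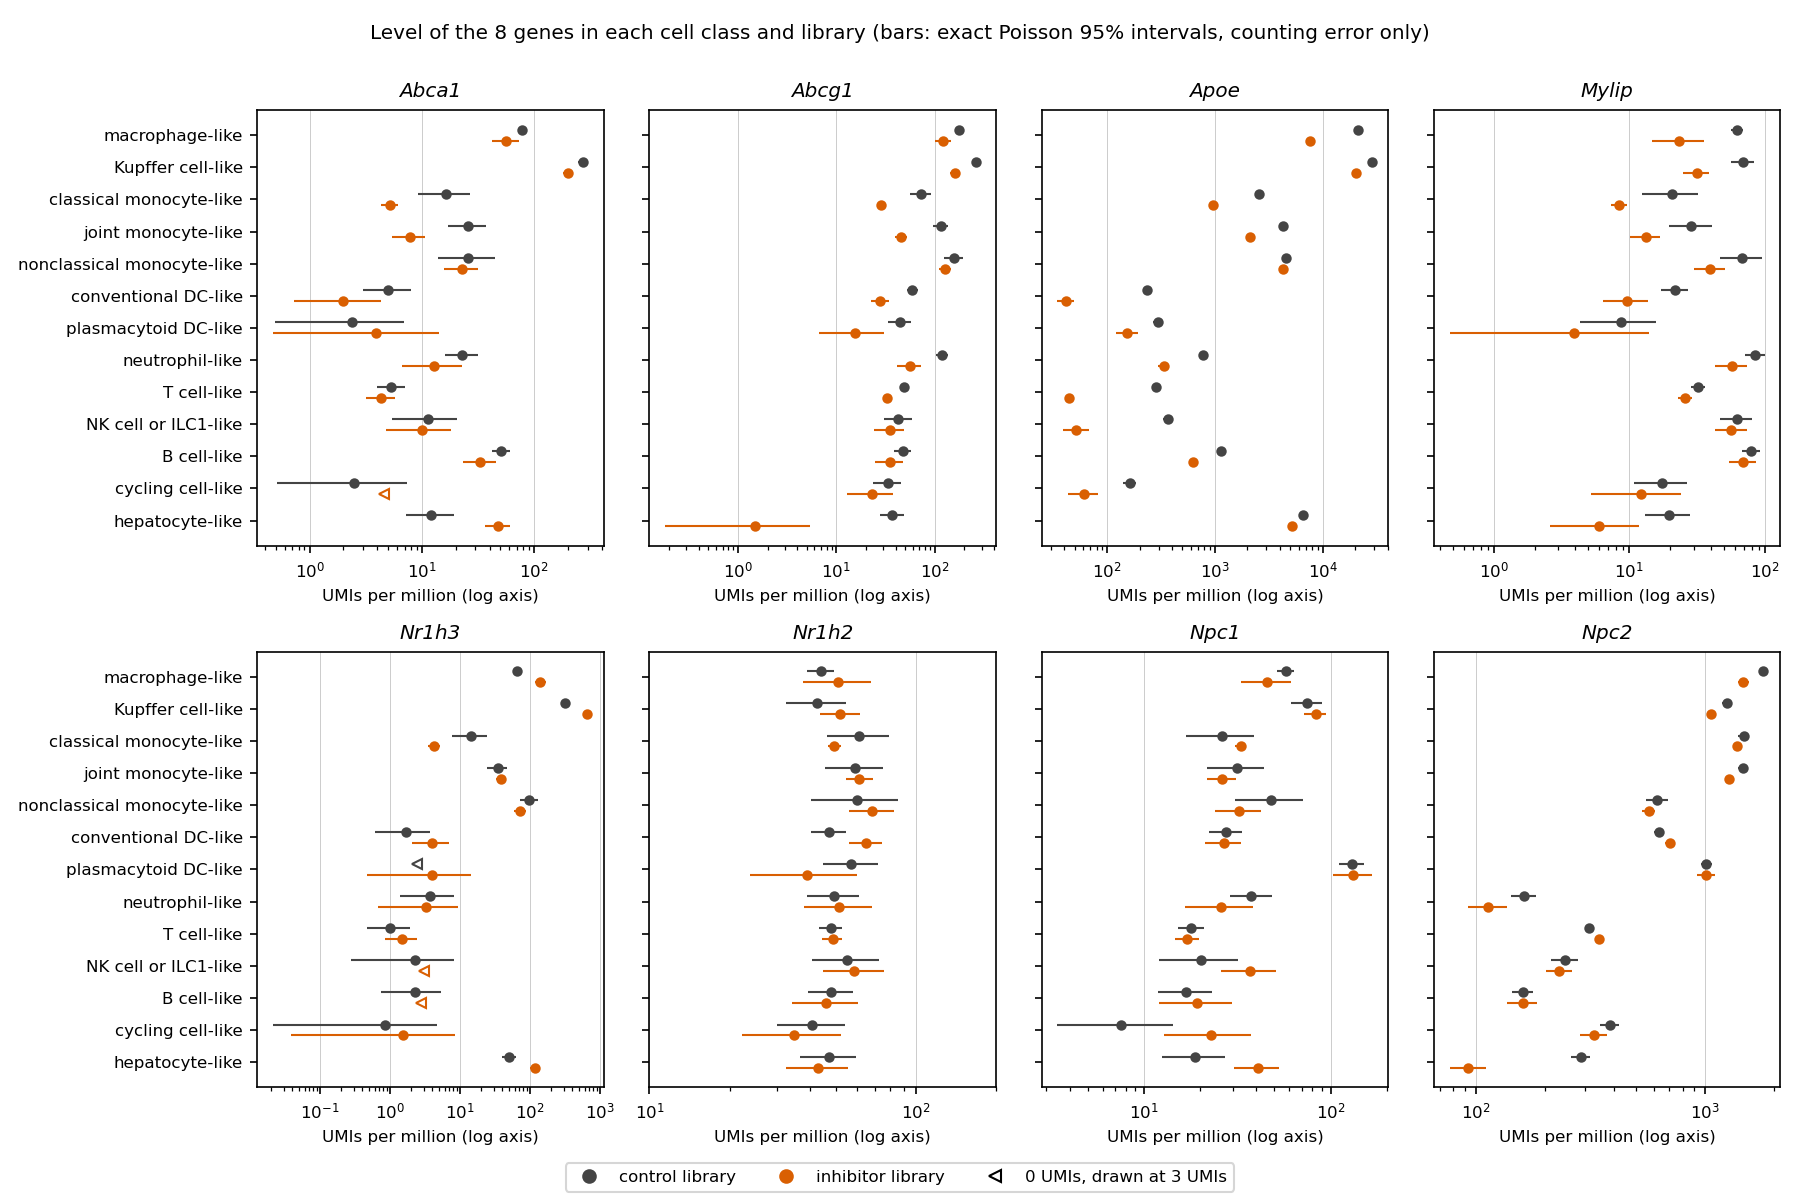
CPM of the 8 genes (log horizontal axis) in the 13 classes (vertical axis), control library in grey and inhibitor library in orange, with exact Poisson 95% intervals for counting error only; open triangles mark 0 UMIs, drawn at the level of 3 UMIs. Kupffer cell-like and macrophage-like cells hold the highest Abca1 and Apoe, while Nr1h2 lies between 35.0 and 68.4 CPM in every class and library.

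The 4 receptor targets had ratios below 0 in most classes. For Abca1, Abcg1, Apoe and Mylip together 49 ratios were measured, 48 of them were below 0, and 29 passed the fold as lower against 1 as higher. Of all measured genes 9.16% to 26.8% were lower and 4.2% to 29.9% higher by the same fold, depending on the class. The median log2 ratio of all measured genes ran from -0.17 in neutrophil-like to 0.09 in hepatocyte-like cells. Of the 49 ratios of the targets 36 had an interval below 0 and 1 had an interval above 0. Among the 10 lower calls of Apoe were those in neutrophil-like, cycling and plasmacytoid dendritic cell-like cells. Once free RNA was subtracted by the profile of barcodes with few genes, their ratios were above 0 (0.57, 0.43 and 0.97). By the profile of hepatocyte-like cells their ratios were -0.18, -0.29 and 0.21. For the receptors and the lysosomal proteins 24 of 46 ratios were below 0, with 2 lower and 6 higher. Of the 7 genes measured in at least 11 classes, the 4 targets were below 0 in all of those classes or all but 1. Over the 6087 genes measured as widely the share was 2.99%. Abca1, measured in 11 classes and below 0 in 10, lay at both limits of this rule. The genes were also chosen with earlier results of these data known, so the share describes and carries no test. The classes come from the same 2 libraries and are not independent of each other.

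Abca1 was below 0 in 10 of 11 classes and at least 1.5-fold lower in 5. In classical monocyte-like cells its level was 16.4 CPM in control and 5.19 CPM in inhibitor cells, a log2 ratio of -1.66 (95% interval -2.43 to -0.78). In the joint monocyte-like class it was 25.9 and 7.76 CPM, a ratio of -1.74 (-2.49 to -0.98). The tissue macrophages differed less. The ratio was -0.46 (-0.65 to -0.27) in Kupffer cell-like and -0.47 (-0.91 to -0.06) in macrophage-like cells, neither past the fold. B cell-like cells, the lymphoid class with the most Abca1, had a ratio of -0.62 (-1.20 to -0.07). In conventional dendritic cell-like cells the call rested on 18 control and 6 inhibitor UMIs, and the interval reached 0.05.

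Abcg1 was below 0 in all 13 classes and lower in 7. The ratio was -1.34 (-1.71 to -0.96) in classical monocyte-like cells, where 72.1 CPM in control cells compared with 28.4 CPM in the inhibitor library. Neutrophil-like and conventional dendritic cell-like cells each had a ratio of -1.08, from 118 to 55.9 CPM in the former and from 59.4 to 28.0 CPM in the latter. In T cell-like cells, with 441 control and 354 inhibitor UMIs, the level was 49.1 and 33.1 CPM and the ratio -0.57 (-0.78 to -0.37), just inside the fold. Macrophage-like cells, at 176 and 121 CPM, were also inside the fold (ratio -0.54, -0.83 to -0.26), whereas Kupffer cell-like cells passed it (-0.72).

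**Figure D2:**
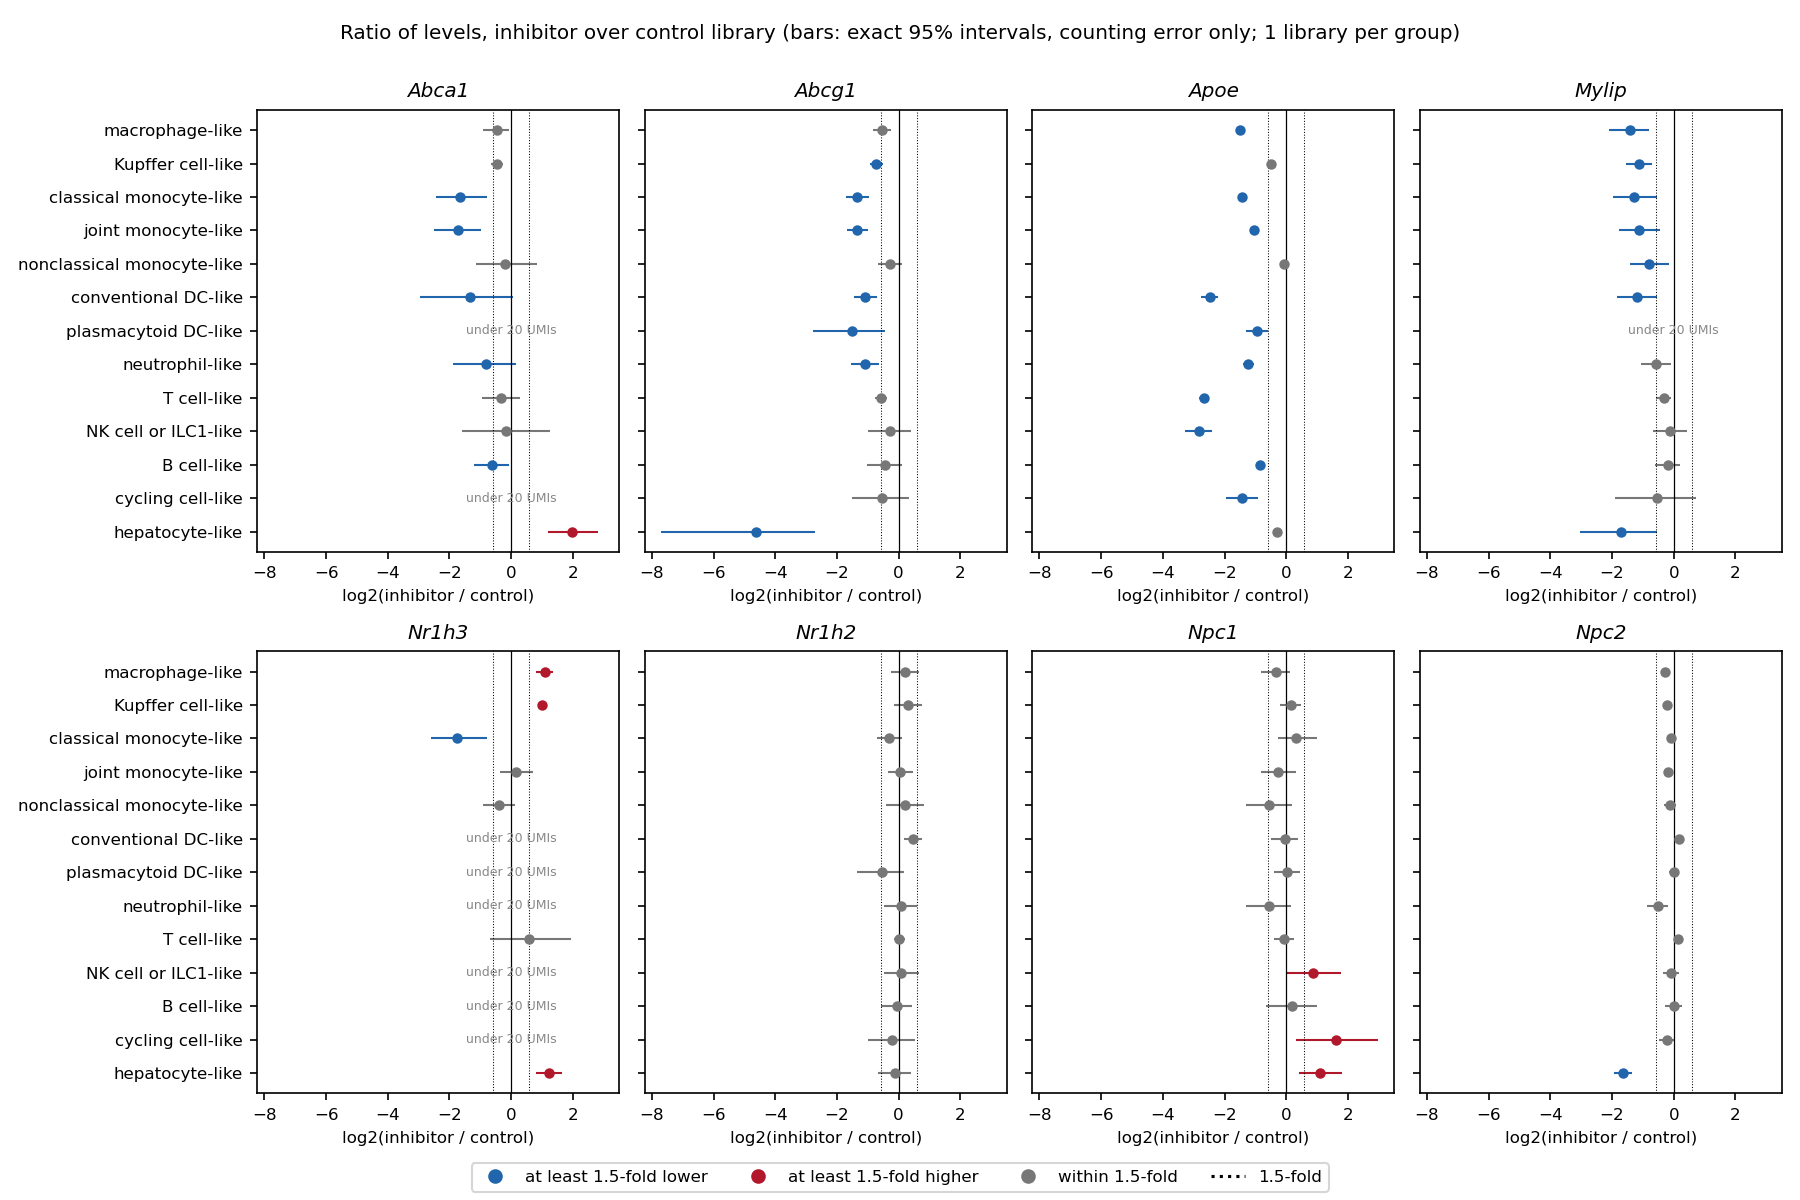
Log2 ratio of CPM, inhibitor over control (horizontal axis), for the 8 genes in the 13 classes (vertical axis), with exact 95% intervals for counting error only; blue points are at least 1.5-fold lower, red points at least 1.5-fold higher, grey points within the fold, dotted lines mark 1.5-fold. The upper row, the 4 receptor targets, lies left of 0 except for Abca1 in hepatocyte-like cells, and the lower row does not.

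Apoe was below 0 in all 13 classes and lower in 10. In macrophage-like cells 21285 CPM in control cells compared with 7564 CPM in the inhibitor library, 2.81-fold lower (log2 ratio -1.49, -1.53 to -1.46). In Kupffer cell-like cells the ratio was -0.49 (-0.51 to -0.47). Classical monocyte-like cells had 2559 and 950 CPM (ratio -1.43), and nonclassical monocyte-like cells 4538 and 4272 CPM (ratio -0.09, -0.16 to -0.02). Both libraries thus held similar Apoe in nonclassical monocyte-like cells, and whether the ratio differs between classes was not tested.

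Low levels of Apoe in lymphocytes, dendritic cells and neutrophils stood beside a difference in free RNA. Genes of proteins secreted by hepatocytes, such as Alb, made up 0.138% of UMIs in control T cell-like cells and 0.0103% in inhibitor T cell-like cells. Apoe UMIs per 100 UMIs of these genes were 20.7 in T cell-like, 20.8 in conventional dendritic cell-like, 22.04 in neutrophil-like and 22.5 in plasmacytoid dendritic cell-like cells of the control library. Control barcodes with fewer than 300 genes, taken as free RNA though all barcodes held at least 500 UMIs, had 17.8 and hepatocyte-like cells 13.9. In the inhibitor library the value was 43.3 in T cell-like, 31.8 in conventional dendritic cell-like, 94.2 in neutrophil-like and 134 in plasmacytoid dendritic cell-like cells, against 29.9 in barcodes with fewer than 300 genes. Scaling the free-RNA profile to each class assigned to it 86.1% of control Apoe UMIs in T cell-like cells, 85.6% in conventional dendritic cell-like cells and 80.9% in neutrophil-like cells. In the inhibitor library these shares were 69.2%, 94.1% and 31.8%. The profile of hepatocyte-like cells gave 67.0%, 66.7% and 63.0% in control and 41.5%, 56.4% and 19.1% in inhibitor cells. The Apoe ratio of neutrophil-like cells was -1.22 without subtraction. It was 0.57 after subtraction by barcodes with fewer than 300 genes, and -0.18 by the profile of hepatocyte-like cells.

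In macrophage-like, Kupffer cell-like and monocyte-like cells the estimate by the free-RNA profile was small. It was 1.04% of control Apoe UMIs in macrophage-like, 0.877% in Kupffer cell-like and 6.70% in classical monocyte-like cells, and after subtraction the Apoe ratios of these classes were -1.48, -0.43 and -1.38. In conventional dendritic cell-like cells this profile took an estimated 119 of 126 inhibitor Apoe UMIs. The ratio after subtraction was -3.76 there, on the few UMIs left and without an interval, and -2.12 with the profile of hepatocyte-like cells. Control B cell-like cells had 65.8 Apoe UMIs per 100 and inhibitor B cell-like cells 382, both above the free-RNA value, and an estimated free part of 27.1% and 7.85%. For Abca1, Abcg1 and Mylip the largest estimate by this profile in a measured class was 11.7%. It was that of Abca1 in inhibitor conventional dendritic cell-like cells, on 6 UMIs. Where the library itself held 20 or more UMIs in the class, the largest was 7.96%, for Abca1 in control T cell-like cells.

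**Figure D3:**
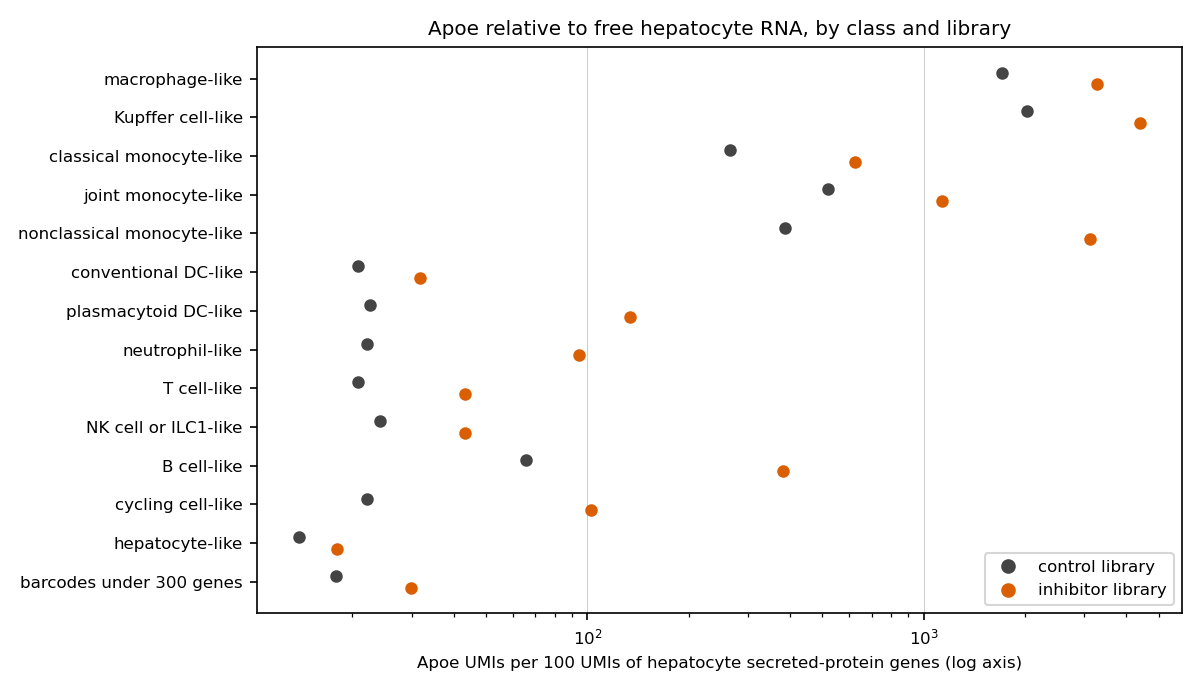
Apoe UMIs per 100 UMIs of hepatocyte secreted-protein genes (log horizontal axis) by class and, in the last row, in barcodes with fewer than 300 genes; grey is the control and orange the inhibitor library, 1 value each. Control T cell-like, conventional dendritic cell-like and neutrophil-like cells sit at 20.7 to 22.04, near the free-RNA value of 17.8, while macrophage-like and Kupffer cell-like cells are at 1709 and 2033.

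Mylip was below 0 in all 12 classes where it was measured and lower in 7, all of them but the hepatocyte-like class being myeloid. Kupffer cell-like cells had 68.7 CPM in control and 31.5 CPM in inhibitor cells, a ratio of -1.12 (-1.56 to -0.69). Macrophage-like cells had 62.4 and 23.4 CPM (ratio -1.41, -2.11 to -0.80) and conventional dendritic cell-like cells 21.7 and 9.57 CPM (-1.18, -1.85 to -0.55). In lymphoid classes the ratio was nearer 0, at -0.32 (-0.56 to -0.08) in T cell-like and -0.20 (-0.61 to 0.20) in B cell-like cells. The difference between the myeloid and the lymphoid ratios was not tested.

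The receptor Nr1h3 went the other way in Kupffer cell-like and macrophage-like cells. In Kupffer cell-like cells it was 317 CPM in control and 639 CPM in inhibitor cells, 2.01-fold higher (ratio 1.01, 0.86 to 1.16). In macrophage-like cells it was 65.7 and 139 CPM, 2.12-fold higher (ratio 1.08, 0.79 to 1.37). In both classes the ratios of Apoe, Abcg1 and Mylip were below 0. When the pathway genes were allowed into the clustering, the Nr1h3 ratio of macrophage-like cells was 0.30 and no longer past the fold. In cluster 10, which also had macrophage markers but was held apart, Nr1h3 was 58.8 and 5.42 CPM, on 50 and 2 UMIs. The ratio there was -3.44 (-6.52 to -1.51). With that cluster counted as macrophage-like the Nr1h3 ratio of the class was 0.65. In classical monocyte-like cells Nr1h3 was lower, at 14.2 and 4.21 CPM (ratio -1.75, -2.59 to -0.80), on 13 control UMIs. Nr1h2 passed the fold in none of 13 classes, and its ratio in conventional dendritic cell-like cells was 0.46 (0.16 to 0.77).

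The genes of the lysosomal proteins passed the fold in few classes. Npc2 was within the fold in 12 of 13 classes, for example 1248 and 1063 CPM in Kupffer cell-like cells (ratio -0.23, -0.32 to -0.15). Npc1 was 57.8 and 45.7 CPM in macrophage-like and 74.9 and 83.1 CPM in Kupffer cell-like cells, and both intervals included 0. It was higher in NK cell or ILC1-like cells, at 20.3 and 36.8 CPM (ratio 0.86, 0.01 to 1.76), in hepatocyte-like cells, at 18.9 and 40.7 CPM (1.11, 0.43 to 1.82), and in cycling cells, on 9 control and 15 inhibitor UMIs.

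Read class by class, the members' counts stand against the share of all measured genes past the same fold. In macrophage-like cells (755 control and 104 inhibitor cells) 2 of the 8 genes, Apoe and Mylip, were lower and 1, Nr1h3, was higher. Of all genes measured there 15.1% were lower and 10.3% higher. In Kupffer cell-like cells (151 and 195) 2 of 8 were lower and 1 higher, where 21.8% of genes were lower and 12.2% higher. A count of 2 of 8 is near the background in both classes. A further cluster with macrophage markers (cluster 10, 89 and 43 cells) was led by interferon-response genes and held apart. With it counted as macrophage-like 4 of 8 members were lower, Abca1 at -0.66 and Abcg1 at -0.69 being added.

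Marker genes moved with the macrophage-like result. In that class 7 of 12 macrophage markers were lower and 0 higher, with a summed level of 9776 CPM in control and 5688 CPM in inhibitor cells, and C1qa was at 2387 and 1080 CPM. Of 10 classical monocyte markers 5 were higher and 0 lower there, with summed levels of 3884 and 5707 CPM. None of either list was at 0 in either library. The part of these differences in the Apoe and Mylip values was not tested. In Kupffer cell-like cells the Kupffer cell markers summed to 4220 and 4308 CPM, with 0 of 10 lower and 4 higher, and the macrophage markers to 19241 and 19929 CPM. Of the 12 macrophage markers 3 were lower and 1 higher there, Gpnmb being at 197 and 43.7 CPM. Cycling markers summed to 1645 and 172 CPM in the Kupffer cell-like class, with 9 of 9 lower. Of the classical monocyte markers 2 were lower and 4 higher. The part of these differences in the Abcg1, Mylip and Nr1h3 values was not tested.

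In classical monocyte-like cells 5 of 8 members were lower and 0 higher, where 19.2% of genes were lower and 13.1% higher. This class held 120 control and 3113 inhibitor cells. Most control cells (90) fell in cluster 21 and most inhibitor cells (1894) in cluster 22. Within cluster 21 alone the Apoe ratio was -1.79 and the Mylip ratio -1.71. In cluster 22, with 30 control cells, they were -0.23 and 0.23, the latter on 2 control UMIs (-1.65 to 3.29). The Abca1, Abcg1 and Nr1h3 ratios were -2.13, -1.45 and -1.40 in cluster 21. In cluster 22 these 3 ratios were -0.95, -1.05 and -2.23, on 3, 16 and 5 control UMIs. The classical monocyte markers summed to 14780 and 15249 CPM over the class, with 0 of 10 lower and 3 higher. Macrophage markers summed to 649 and 540 CPM, with 5 of 11 measured markers lower and 0 higher, and C1qb was at 20.8 and 5.78 CPM. Of 9 measured nonclassical monocyte markers 4 were lower and 1 higher. The part of these markers in the values of the 5 members was not tested.

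In the joint monocyte-like class 4 of 8 were lower and 0 higher (all genes 15.2% lower and 12.9% higher), all 4 being the receptor targets. Nonclassical monocyte-like cells had 1 of 8 lower, Mylip at 67.9 and 39.3 CPM, and 0 higher (9.32% and 14.9%). In conventional dendritic cell-like cells 4 of 7 were lower and 0 higher (10.6% and 9.57%), again the 4 targets. This class is 1 cluster that held markers of conventional dendritic cells 1 and 2, and the part of their mix was not tested. Plasmacytoid dendritic cell-like cells had 2 of 5 lower and 0 higher (9.84% and 9.25%), and neutrophil-like cells 3 of 7 lower and 0 higher (24.4% and 5.75%). Leaving mitochondrial, haemoglobin and hepatocyte secreted genes out of the CPM gave 5 lower in neutrophil-like cells.

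Among the lymphoid classes, T cell-like cells had 1 of 8 lower, Apoe, and 0 higher (10.2% and 4.2% of all genes). B cell-like cells had 2 of 7 lower, Abca1 and Apoe, and 0 higher (9.16% and 6.33%). NK cell or ILC1-like cells had 1 of 7 lower and 1 higher (10.7% and 7.62%). Cycling cells, 1 cluster that held markers of T cells (3560 and 5115 CPM summed) and of conventional dendritic cells 1 (1407 and 610 CPM, with 9 of 9 lower), had 1 of 6 lower and 1 higher (13.0% and 12.7%). The part of this mix in the cycling cell values was not tested. Apart from Abca1 in B cell-like cells, each lower call in these 4 classes was Apoe.

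Hepatocyte-like cells stood apart, with 3 of 8 lower and 3 higher where 26.8% of genes were lower and 29.9% higher. Abca1 was 12.1 CPM in control and 47.5 CPM in inhibitor cells (ratio 1.97, 1.19 to 2.81), and Nr1h3 49.8 and 117 CPM (1.23, 0.82 to 1.65). Abcg1 was 37.0 and 1.51 CPM, on 55 and 2 UMIs. Npc2 was 287 and 92.6 CPM (-1.63, -1.93 to -1.34), but its ratio was 1.70 without a mitochondrial limit. All but 2 control cells came from cluster 6 and all but 5 inhibitor cells from cluster 26. T cell markers summed to 1808 CPM in control and 96.4 CPM in inhibitor hepatocyte-like cells, with 11 of 11 lower and Cd4 at 0 in the latter. The part of leukocyte RNA in the Abcg1 value was not tested.

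Pooling monocyte-like and macrophage-like cells gave larger ratios than any of the classes inside the pool for Abca1, Abcg1, Apoe and Mylip. In the pool 6 of 8 members were lower and 0 higher (20.5% and 13.1% of all genes), and Abca1 was 62.3 and 7.86 CPM, 7.92-fold lower. Nr1h3 was 58.2 and 16.2 CPM there, 3.59-fold lower, although it was higher in the macrophage-like class. The pool held 755 macrophage-like among 1112 control cells and 104 among 4110 inhibitor cells. The pooled values thus include the difference in the mix of classes.

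Shares of cells with a UMI were compared after thinning every cell to 1000 UMIs. In Kupffer cell-like cells Abca1 was found in 24.5% of 143 control cells (17.7% to 32.4%) and 15.8% of 183 inhibitor cells (10.9% to 21.96%), whereas without thinning the shares were 71.5% and 70.8% at median depths of 8632 and 13877 UMIs. Nr1h3 was found in 28.7% (21.4% to 36.8%) and 46.4% (39.1% to 54.0%) of the same cells. Apoe was found in 92.2% of control and 70.1% of inhibitor macrophage-like cells. In that class the thinned share with Abca1 was 9.90% and 10.3%, which does not follow the lower CPM, and no order was read from it.

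**Figure D4:**
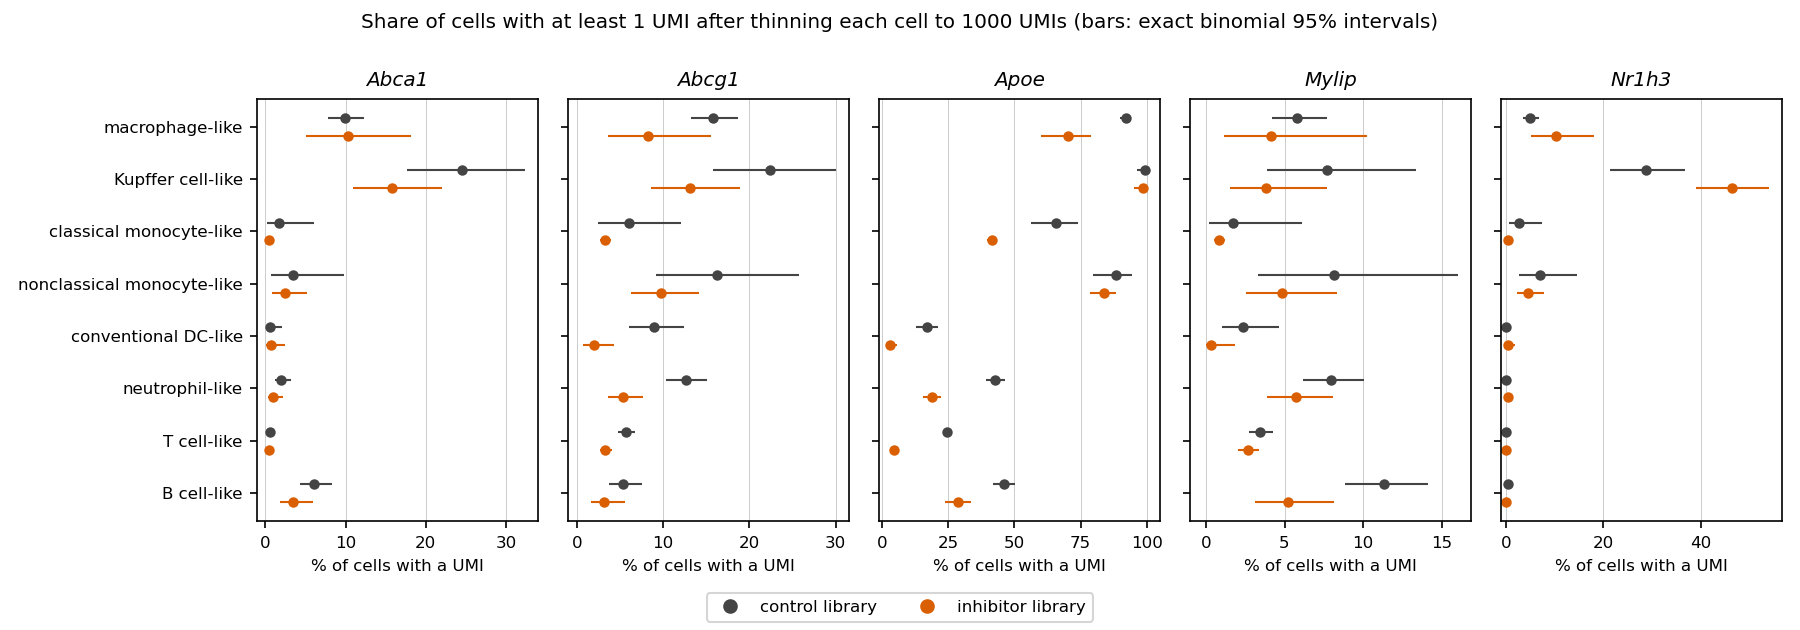
Percentage of cells with at least 1 UMI of the named gene after thinning to 1000 UMIs (horizontal axis, linear), in 8 classes (vertical axis), control in grey and inhibitor in orange, with exact binomial 95% intervals. The Nr1h3 share of Kupffer cell-like cells goes from 28.7% to 46.4%, and the Apoe share of macrophage-like cells from 92.2% to 70.1%.

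Other genes of the pathway were counted from fixed lists at 50 or more UMIs in a class, in 4 classes picked with the values known. At that depth 11.4% of genes were lower and 8.77% higher in macrophage-like cells, 15.2% and 12.3% in Kupffer cell-like cells, 14.1% and 14.3% in classical monocyte-like cells and 7.12% and 8.14% in conventional dendritic cell-like cells. Other liver X receptor targets were lower in 5 of 13 (0 higher), 6 of 13 (1 higher), 5 of 12 (0 higher) and 3 of 9 (0 higher), in the same order of classes. Their median log2 ratios were -0.33, -0.49, -0.12 and -0.11, beside 0.04, -0.01, -0.0014 and 0.10 over all genes.

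The most abundant of these targets did not share the direction of Apoe. In Kupffer cell-like cells Cd5l, a secreted scavenger protein, was 3470 and 4935 CPM (ratio 0.51), Lpl, the lipoprotein lipase, 1112 and 2032 CPM (0.87) and Pltp, the phospholipid transfer protein, 735 and 947 CPM (0.37). In macrophage-like cells Lpl was 281 and 345 CPM (0.30) and Smpdl3a 240 and 239 CPM. Apoc1, the neighbour of Apoe in the genome and chosen after its values were seen, was lower in all 4 classes, with ratios of -1.29, -1.03, -1.03 and -2.13. The desaturase gene Scd1, also chosen afterwards, was lower in the first 3, at -1.46, -1.13 and -0.96.

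Msr1 and Cd36, genes of lipid uptake, lay on opposite sides of 0 in Kupffer cell-like cells. The scavenger receptor Msr1 was 135 and 345 CPM in Kupffer cell-like cells (1.35), and Cd36, another lipid receptor, 223 and 139 CPM there (-0.68).

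Cholesterol synthesis genes driven by SREBP2, which respond to low rather than high cholesterol, were lower in 1 of 15 and higher in 3 in macrophage-like cells. The counts were 0 of 10 lower and 2 higher in Kupffer cell-like cells, 2 of 18 and 8 in classical monocyte-like cells and 1 of 17 and 9 in conventional dendritic cell-like cells. Msmo1, a sterol oxidase of the pathway, was 15.3 and 45.3 CPM in classical monocyte-like cells (1.57) and 20.1 and 58.4 CPM in conventional dendritic cell-like cells (1.54). The farnesyl diphosphate synthase gene Fdps was 32.6 and 122 CPM in the latter (1.90). Lower receptor targets and higher synthesis genes thus occurred together in conventional dendritic cell-like and in classical monocyte-like cells. The joint monocyte-like class, which was not among the classes picked, had the same pairing. There 8 of 12 synthesis genes were higher and 0 lower (median log2 ratio 0.77). Of the other liver X receptor targets 5 of 10 were lower and 0 higher there (median -0.76). In T cell-like cells 0 of 20 synthesis genes were higher and 1 lower.

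Few genes of lysosomal release and ester storage passed the fold. Lysosomal genes were lower in 1 of 7, 0 of 7, 1 of 7 and 0 of 7, and higher in 0 of 7 in each class, the lysosomal acid lipase Lipa being 98.3 and 51.1 CPM in classical monocyte-like cells (-0.94). Ester storage genes were lower in 1 of 4, 0 of 4, 0 of 4 and 1 of 4, with 0 higher, and Plin2, the lipid droplet coat protein, was 468 and 483 CPM in macrophage-like cells. Receptor partners and co-regulators were lower in 2 of 7, 2 of 7, 2 of 7 and 0 of 6, and higher in 0, 1, 1 and 0. Rxra, the partner of both receptors, was 103 and 106 CPM in Kupffer cell-like cells. Of oxysterol genes 2 were measured in each class, and Cyp27a1, an enzyme of oxysterol formation, was lower in Kupffer cell-like cells, at 40.5 and 16.7 CPM (-1.28).

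**Figure D5:**
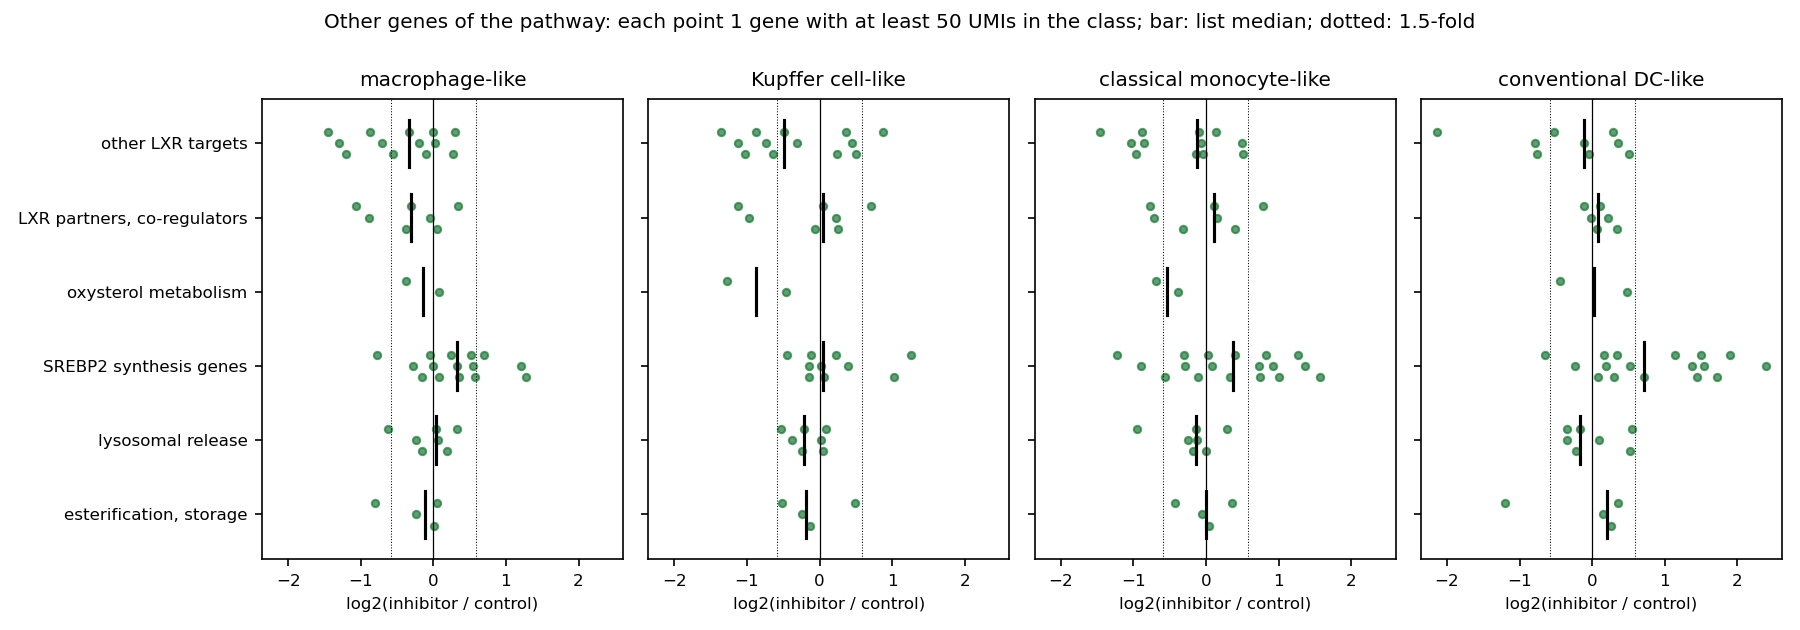
Log2 ratio of CPM, inhibitor over control (horizontal axis), of single genes (green points, at least 50 UMIs in the class) of 6 lists (vertical axis) in 4 classes; black bars are list medians and dotted lines 1.5-fold. The SREBP2 list reaches furthest right in conventional dendritic cell-like cells, where Fdps, not its highest point, is at 1.90, and the other liver X receptor targets spread to both sides of 0.

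Across the 28 sums of class and library with at least 50 cells, patterns of level were compared by Pearson correlation of log2(CPM + 10). The points share 2 libraries and differ in depth, so these values describe and carry no test. Apoe ran with Nr1h3 (r = 0.85) and Abca1 (0.82), and Abca1 with Nr1h3 (0.78), whereas Abcg1 was closest to Mylip (0.67). Nr1h2 had no value above 0.30 with any of the other 7. Of 10137 other genes, those most alike were Dnase2a, Slc13a3 and Mertk for Abca1 (0.83, 0.82 and 0.82), Il10ra, Nckap1l and Adam17 for Abcg1 (0.87, 0.86 and 0.86), and Fam20c, Itgb5 and Selenop for Apoe (0.89, 0.88 and 0.84). They were Fmnl3, Mlxip and Bcl2a1b for Mylip (0.85, 0.79 and 0.76) and Pparg, Acp2 and Rcan1 for Nr1h3 (0.90, 0.90 and 0.88). For Nr1h2 they were Napg, Dlgap4 and Ikbkb (0.65, 0.63 and 0.63), for Npc1 Wdr81, Ctsl and Nceh1 (0.87, 0.86 and 0.86), and for Npc2 Gusb, Rgs10 and Il3ra (0.91, 0.88 and 0.88).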

How the data were processed

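Per the file headers, the deposited matrices are raw UMI counts (integers), 1 value for each gene in each barcode, written by cellranger 5.0.1 and not normalized. The submitters' processing notes name Cell Ranger, R 3.0, Seurat 3 and the build mm9. Since 31011 of 31053 identifiers (99.9%) are in GENCODE M21 on GRCm38, the build behind the counts is unresolved, and positions printed are those of GRCm38. The sequenced Annexin V fraction is not stated.

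Barcodes with at least 300 genes, 500 UMIs and at most 25% mitochondrial UMIs were kept. Doublets were scored against simulated doublets in each library, and 0.8% per 1000 barcodes was removed, 374 control (5.47%) and 717 inhibitor barcodes (7.57%). Both libraries were clustered together without integration (scanpy 1.11.5, scikit-learn 1.9.0, igraph 0.11.9, Python 3.11.15) on 2000 variable genes, without the 80 listed pathway genes, with 30 principal components, 20 neighbours and Leiden resolution 1, giving 27 clusters. A cluster took the name of a class from at least 3 of its markers at 2-fold or more. Classes within 0.5 log2 were named jointly, a scoring set after clusters were seen, and a cluster whose top 10 genes held more markers of another class was held apart.

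UMIs were summed per library and class, so the unit of comparison is the library, 1 per group. With 0 UMIs a floor of 3 was used. Intervals used scipy 1.17.1 and numpy 2.4.6, and the ratio script was checked on simulated counts. Figures used matplotlib 3.10.9. All 8 members are named, and of each list up to 4 genes with the most UMIs in the class. Others are said to be chosen afterwards. For likeness, the 3 most correlated genes with at least 200 UMIs were taken. Members, lists and markers were chosen with earlier results of these data known. Alternatives covered the cell limits, doublets, clustering, free RNA, scaling and thresholds, and leaving out or adding clusters. Counts for the list of lipoprotein receptors are not reported here.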

Additional observations from a re-analysis of the deposited data

How the results depend on the processing

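With 1 library per group neither a replicate check nor a test was possible, depth sets counting error only, and intervals leave out differences between mice, tumours and preparations. No paired analysis was possible because each group has 1 library. Of 1328 log2 ratios recomputed under the alternatives, 1164 stayed within the counting interval of the reported value, 159 moved outside it, and 5 that had passed the fold changed sign. Counting all measured ratios in the 13 classes, 566 of 573 alternatives kept the sign for Abca1, Abcg1, Apoe and Mylip. For the other 4 members 492 of 539 did. The exceptions of Apoe all came with subtraction of free RNA, in cycling, neutrophil-like and plasmacytoid dendritic cell-like cells. The cause of the exceptions was not tested. With each cell weighted equally the Abca1 ratio of macrophage-like cells was 0.0013. Of 422 counts of members lower or higher, 376 stayed within 1.5 times, and 46 moved. Classes lost when cells were regrouped gave no value there: the joint monocyte-like class without a mitochondrial limit, from 600 genes and at resolutions 0.5 and 2; conventional dendritic cells from 600 genes and at resolution 2; hepatocytes at 10% mitochondrial, from 600 genes and with doublets kept; macrophage-like and Kupffer cell-like cells with doublets kept; cycling cells with double doublet removal and at resolution 0.5; and with separate clustering all 5 monocyte, macrophage and Kupffer cell classes.

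Without a mitochondrial limit the lower members were 1 in B cells, 3 in T cells, 2 in cycling cells, 1 in hepatocytes and 3 in nonclassical monocytes, 5 were higher in hepatocytes, and the hepatocyte Npc2 ratio was 1.70. At 10% mitochondrial 4 were lower in cycling cells, and from 600 genes 1 in B cells. With no doublets removed 1 was higher in T cells and 0 in cycling cells. Removing double the doublets gave 1 lower in B cells, 4 in Kupffer cells and 2 in T cells, and 1 higher in conventional dendritic cells and 0 in hepatocytes. Nonclassical monocytes had 3 lower at resolution 0.5 and at 2, and cycling cells 5 at 2. With pathway genes in the clustering 4 were lower and 0 higher in macrophages. Separate clustering gave 1 lower in B cells, 2 in T cells and 5 in cycling cells, with 0 higher in cycling cells. Subtracting free RNA by the profile of barcodes under 300 genes gave 1 lower in B cells, 0 in cycling cells and 1 in plasmacytoid cells, 1 higher in T cells and 1 in plasmacytoid cells, and Apoe ratios of 0.43 in cycling cells, 0.57 in neutrophils and 0.97 in plasmacytoid cells. By the hepatocyte profile 0 were lower in cycling cells, 2 in nonclassical monocytes and 1 in plasmacytoid cells, 1 was higher in T cells, and the plasmacytoid Apoe ratio was 0.21. CPM without mitochondrial, haemoglobin and hepatocyte secreted genes gave 5 lower in neutrophils, and the mean over cells 2 in NK and 2 in T cells. From 50 UMIs 0 were higher in cycling cells. A fold of 2 left 0 lower in B cells, 1 in Kupffer cells, 0 in nonclassical monocytes and 1 in plasmacytoid cells, and 0 higher in NK cells. Of the alternatives added after the data were seen, macrophages with cluster 10 had 4 lower, T cells without cluster 4 had 2 lower and 1 higher, and classical monocytes without cluster 22 had 1 higher.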
